A study of Homo sapiens with 24 samples.

Results

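GAS5 and 9 further small nucleolar RNA (snoRNA) host transcripts were described across both cell lines and all time points: GAS5, SNHG1, SNHG5, SNHG7, SNHG8, SNHG12, SNHG15, SNHG16, ZFAS1 and EPB41L4A-AS1. They were taken by gene symbol from the raw count table, as 10 of its 26645 gene entries, and all 10 were among the 14739 entries with enough reads to test. MB468 (MDA-MB-468) is a triple-negative, metastatic breast cancer cell line that depends on methionine (Met). MB468res-R8 is 1 Met-independent clone that was obtained from MB468 by long culture with homocysteine (Hcy) in place of Met. Both lines grew in DMEM with dialyzed serum, vitamin B12, glutamine, cysteine and 100 µM Met (Met+, the 0 h libraries), and were moved to the same medium with 370 µM DL-homocysteine and no Met (Met-Hcy+) for 0.5, 2 or 12 h. Each of the 8 groups held 3 poly(A)-selected RNA-seq libraries, named by number in the labels with no statement that they were separate cultures, so p-values measure the spread between these libraries. Cells kept in Met+ for 12 h were not analysed here, so the loss of Met, the addition of Hcy and the time in fresh medium cannot be told apart.

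Most snoRNAs are cut out of the introns of host genes after splicing, and then guide ribose methylation (box C/D, SNORD) or pseudouridylation (box H/ACA, SNORA) of ribosomal and spliceosomal RNA. The exons of the hosts studied here encode no long protein. Several of these spliced RNAs are nevertheless engaged by ribosomes and then removed by nonsense-mediated decay (NMD), the pathway that degrades RNAs with an early stop codon, so they are known to accumulate when translation or NMD is restrained. Many host genes, like ribosomal protein genes, start transcription at a C followed by a run of pyrimidines, the terminal oligopyrimidine (TOP) tract, which ties the translation of their transcripts to mTOR activity.

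The start sites are shown because the TOP tract is a feature that was not used to choose the genes. Each line gives 50 bases of the sense strand (GRCh38), 25 before the start and 25 from that base on. The start is the one shared by more transcripts than any other in GENCODE release 44, and the most upstream one in a tie. It held from 2 of 14 transcripts for SNHG15 to 61 of 89 for SNHG5. For SNHG1, SNHG8, SNHG12, SNHG15, SNHG16, ZFAS1 and EPB41L4A-AS1 most transcripts start elsewhere. Capitals mark a run of at least 5 C or T that begins with C within 5 bases of the start.
GAS5: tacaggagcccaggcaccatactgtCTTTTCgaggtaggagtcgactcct
ZFAS1: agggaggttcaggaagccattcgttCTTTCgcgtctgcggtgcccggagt
EPB41L4A-AS1: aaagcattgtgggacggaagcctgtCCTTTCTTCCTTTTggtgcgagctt
SNHG7: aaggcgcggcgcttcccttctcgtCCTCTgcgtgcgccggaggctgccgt
SNHG8: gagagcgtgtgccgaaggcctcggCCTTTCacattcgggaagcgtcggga
SNHG12: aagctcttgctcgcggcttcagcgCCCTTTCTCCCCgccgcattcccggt
SNHG16: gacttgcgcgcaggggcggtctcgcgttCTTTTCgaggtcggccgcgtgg
SNHG1: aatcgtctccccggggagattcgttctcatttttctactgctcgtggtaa
SNHG5: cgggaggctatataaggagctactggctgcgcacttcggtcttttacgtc
SNHG15: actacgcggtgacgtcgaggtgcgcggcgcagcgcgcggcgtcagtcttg
The windows lie at chr1:173867965-173868014 (minus strand) for GAS5, chr20:49278617-49278666 (plus) for ZFAS1, chr5:112160839-112160888 (plus) for EPB41L4A-AS1, chr9:136728160-136728209 (minus) for SNHG7, chr4:118278733-118278782 (plus) for SNHG8, chr1:28581849-28581898 (minus) for SNHG12, chr17:76557741-76557790 (plus) for SNHG16, chr11:62855861-62855910 (minus) for SNHG1, chr6:85678724-85678773 (minus) for SNHG5 and chr7:44986644-44986693 (minus) for SNHG15.

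Such a run was present in 7 of the 10 windows (70.0%). Among the 13525 tested genes with a GENCODE start it was present in 19.9%, among the 656 tested lncRNA genes in 22.6%, and among the 82 tested cytosolic ribosomal protein genes in 75.6%. It began on the start base in GAS5, ZFAS1 and EPB41L4A-AS1, 1 base before it in SNHG7, SNHG8 and SNHG12, and 3 bases after it in SNHG16. SNHG1, SNHG5 and SNHG15 had no such run within 5 bases of the GENCODE start. The SNHG1 and SNHG5 windows hold runs of this kind farther away, and that of SNHG5 begins at base 85678733 of chromosome 6, where the RefSeq gene starts. The letters TATAA on the sense strand, searched between 45 and 15 bases before the start, occurred in SNHG7, SNHG8, SNHG12 and ZFAS1, 4 of 10 against 2.91% of the 13525 genes. The SNHG5 window also holds these letters, upstream of the RefSeq start but just past the stretch searched from the GENCODE start, so SNHG5 was not counted. CACGTG, the E-box read alike on both strands, occurred between 250 bases before and 50 bases after the start of GAS5 and SNHG7, against 9.31% of the genes. The letters TGATGCAA, searched on both strands in the same window, occurred in none of the 10 and in 0.473% of the genes. These matches describe letters and are not evidence of a factor at the site.

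Total counts per library ran from 11745553 to 36496655, and the 10 hosts took between 0.0653% and 0.116% of the reads on genes. EPCAM, CDH1, EGFR and 5 keratins marked both lines as epithelial, with at least 258 CPM (counts scaled to library size) in every library. Of the receptors that triple-negative cells lack, PGR reached at most 0.0981 CPM and ESR1 at most 22.6 CPM, while ERBB2 was at 38.8 to 98.1 CPM. The 9 markers fixed for blood, endothelial and fibroblast cells summed to 53.4 to 200 CPM and were lower at 12 h (76.7 to 88.9 CPM in MB468, 53.4 to 63.9 CPM in MB468res-R8) than at 0 h (182 to 197 and 103 to 128 CPM). CD14 (21.5 to 161 CPM) and COL1A1 (14.4 to 73 CPM) made up nearly all of that sum. PECAM1, VWF and PDGFRB reached at most 2.65, 1.55 and 0.656 CPM, and PTPRC, CD3E, COL1A2 and DCN stayed at or below 0.197 CPM. The part of these markers in the host results was not tested. In bulk libraries like these, fewer cells of a type and less RNA per cell cannot be told apart. MB468 2 h replicate 2 stood apart with 20348 reads on 5 RNAs without a poly(A) tail, against 136 to 1152 in the other libraries, so results at 2 h in MB468 are also given without it.

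ZFAS1 and GAS5 were the most abundant of the hosts in both lines. Levels were compared between genes as CPM per kilobase of the median GENCODE transcript, which ran from 489 bases for SNHG8 to 2459 bases for SNHG16. In MB468 at 0 h, ZFAS1 stood at 373 ± 8.65 (SD, n = 3), GAS5 at 287 ± 17.9 and SNHG1 at 99.1 ± 2.77 CPM per kilobase. SNHG8 at 65.7 ± 3.81 and SNHG15 at 64.3 ± 2.21 followed with overlapping libraries, then SNHG16 at 52.1 ± 0.818, EPB41L4A-AS1 at 33.2 ± 1.87 and SNHG7 at 26.2 ± 0.902. SNHG5 at 16.7 ± 0.808 and SNHG12 at 15.2 ± 1.26 overlapped at the bottom. In MB468res-R8 at 0 h the order was the same at the top, with ZFAS1 at 221 ± 4.75 and GAS5 at 198 ± 7.33, but SNHG15 (84.5 ± 5.95) came next and stood above SNHG1 (76.9 ± 3.11) without overlap.

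The first comparison asks how the lines differed in Met+ medium. At 0 h, 8 of the 10 hosts were lower in MB468res-R8 than in MB468, 1 was higher and 1 did not pass the threshold, at a Benjamini-Hochberg adjusted p under 0.05 in edgeR's quasi-likelihood test. Over all tested genes 53.6% passed in this comparison, 28.3% lower and 25.3% higher, and the median log2 fold change of the hosts was -0.33 against -0.01 for all genes. Other snoRNA hosts, listed further below, were also lower in MB468res-R8. Of 29 protein-coding hosts of the translation machinery 27 were lower and 0 higher (median -0.26). Of 14 other noncoding hosts 7 were lower and 0 higher (median -0.24).
ZFAS1, whose spliced RNA associates with ribosomes and which hosts the SNORD12 family, had normalized read counts (counts scaled to a common library size) of 5675, 5908 and 5909 in the MB468 libraries and 3509, 3492 and 3373 in the MB468res-R8 libraries. The groups lay far apart, with a log2 fold change of -0.75 ± 0.04 (SE) and an adjusted p of 2.8e-20 in the edgeR test. GAS5, named for its accumulation in growth-arrested cells and host of a series of box C/D snoRNAs, was at 4456, 4850 and 5038 in MB468 and 3168, 3409 and 3321 in MB468res-R8 (log2 fold change -0.53 ± 0.05, adjusted p = 1.31e-12, edgeR). EPB41L4A-AS1, host of SNORA13, showed a difference of similar size, with 512, 494 and 551 against 323, 307 and 314 (-0.71 ± 0.09, adjusted p = 1.52e-08, edgeR). SNHG7 (-0.42), SNHG1 (-0.37), SNHG16 (-0.29), SNHG5 (-0.29) and SNHG8 (-0.28) were lower by smaller log2 amounts. The SNHG5 call was lost without MB468 0 h replicate 3 (-0.25, adjusted p = 0.0614) or MB468res-R8 0 h replicate 2 (-0.24, adjusted p = 0.0843).
SNHG15, a host transcript known for a short half-life, was the exception, with 1482, 1567 and 1580 in MB468 and 2195, 1950 and 1945 in MB468res-R8. All MB468res-R8 libraries were above all MB468 libraries (0.40 ± 0.05, adjusted p = 3.82e-08, edgeR), although scaling on the added ERCC spike-in RNAs gave 0.10 with an adjusted p of 0.529. SNHG12 had overlapping libraries in both lines (-0.05 ± 0.09, adjusted p = 0.688).

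**Figure D1:**
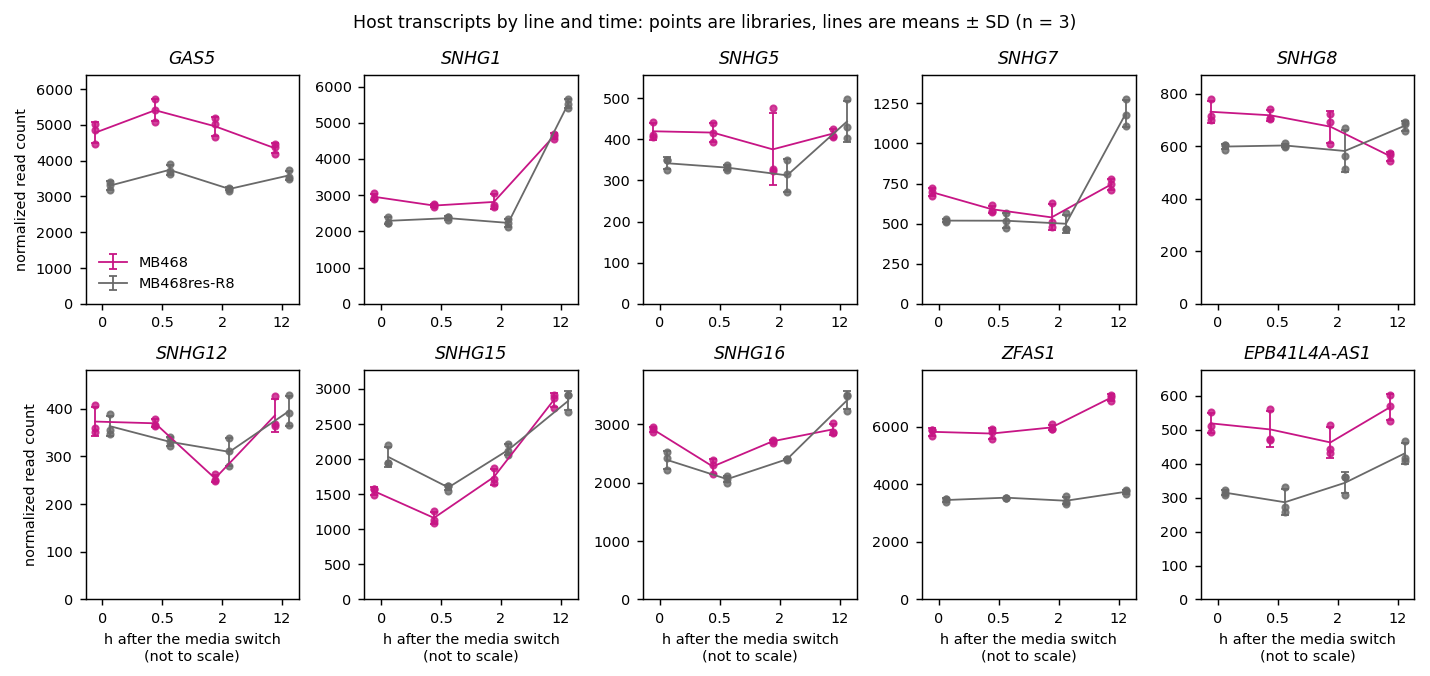
Normalized read counts (y axis, from 0) of the 10 host transcripts by hours in Met-Hcy+ (x axis, not to scale) in MB468 (magenta) and MB468res-R8 (gray), where points are libraries and lines are means ± SD (n = 3). SNHG1 reached 5412 to 5653 at 12 h in MB468res-R8, and ZFAS1 was at 5572 or more in every MB468 library and at 3799 or less in every MB468res-R8 library.

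The time courses ask how each line responded to the exchange of Met for Hcy, and the 0.5, 2 and 12 h comparisons of a line share its 0 h libraries. At 0.5 h, 1 host rose and 4 fell in MB468, where 34.1% of all tested genes passed the threshold (16.3% higher, 17.8% lower). In MB468res-R8, 1 rose and 2 fell, against 33.7% of all genes (17.4% higher, 16.2% lower).
GAS5 was the host that rose in both lines. In MB468 it went from 4456, 4850 and 5038 to 5417, 5090 and 5720 (0.18 ± 0.05, adjusted p = 0.00247), and in MB468res-R8 from 3168, 3409 and 3321 to 3624, 3703 and 3901 (0.18 ± 0.05, adjusted p = 0.00238, edgeR). No 0.5 h library overlapped the 0 h libraries of its line. SNHG15 and SNHG16, the latter host of the SNORD1 family, fell in both lines at the same time. SNHG15 fell to 1093, 1137 and 1255 in MB468 (-0.42 ± 0.06, adjusted p = 9.81e-08) and to 1614, 1552 and 1623 in MB468res-R8 (-0.35 ± 0.05, adjusted p = 1.26e-06, edgeR), again with no overlap. SNHG16 went from 2919, 2872 and 2963 to 2303, 2393 and 2143 in MB468 (-0.35 ± 0.05, adjusted p = 6.46e-08) and from 2425, 2216 and 2533 to 2073, 2004 and 2112 in MB468res-R8 (-0.21 ± 0.05, adjusted p = 0.000347, edgeR).
SNHG1 (-0.13, adjusted p = 0.0291) and SNHG7 (-0.24, adjusted p = 0.0217, edgeR) also fell in MB468 at 0.5 h, with no overlap between libraries. These calls were near the threshold and were lost in several fits that left out 1 library. In those fits the log2 fold changes were -0.13 to -0.09 for SNHG1 and -0.22 to -0.20 for SNHG7. SNHG1 was no longer past the threshold without MB468 0 h replicate 1 or 2, or without MB468 0.5 h replicate 1 or 3 (adjusted p from 0.051 to 0.186), and SNHG7 without MB468 0 h replicate 1, or 0.5 h replicate 1 or 3 (0.0589 to 0.107). The other 5 hosts did not pass the threshold in MB468 at 0.5 h.
With spike-in scaling the 0.5 h rise of GAS5 became -0.025 in MB468 (adjusted p = 0.909) and 0.22 in MB468res-R8 (adjusted p = 0.309, edgeR). That scaling also moved the median of all genes to -0.20 in MB468 and to 0.04 in MB468res-R8. It left no host past the threshold in MB468res-R8 at 0.5 h, where 2022 of all tested genes passed, against 4960 without it.

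At 2 h the hosts were close to their 0 h levels in MB468res-R8, where 0 of 10 passed the threshold, against 4.34% of all genes (2.46% higher, 1.87% lower). The same comparison gave 1 host at an unadjusted p under 0.05 and 0 hosts in DESeq2's Wald test.
In MB468 at 2 h 1 host was higher and 2 were lower, against 16.5% of all genes (8.5% higher, 7.95% lower). SNHG12, host of SNORA16A, SNORA44, SNORA61 and SNORD99, went from 408, 360 and 351 to 249, 250 and 262, and then stood at 426, 364 and 369 at 12 h. The 2 h libraries were all below the 0 h and the 12 h libraries (-0.56 ± 0.09 against 0 h, adjusted p = 2.22e-05, edgeR). In MB468res-R8 the SNHG12 counts were 348, 355 and 388 at 0 h and 338, 279 and 312 at 2 h, which did not overlap (-0.24 ± 0.09, adjusted p = 0.156), and the difference between the lines was not past the threshold (0.32 ± 0.13, adjusted p = 0.18). SNHG7, host of SNORA17 genes, was at 478, 508 and 630 in MB468 at 2 h, below its 674 to 721 at 0 h (-0.36 ± 0.09, adjusted p = 0.00182, edgeR). SNHG15 was higher (0.18 ± 0.06, adjusted p = 0.0178), a call that was lost without MB468 0 h replicate 1 or MB468 2 h replicate 3 (0.16 and 0.13, adjusted p = 0.0874 and 0.167).
The library with many reads on RNAs without a poly(A) tail, MB468 2 h replicate 2, lay within the range of its group for SNHG12 and SNHG7, and no host's call at 2 h changed without it (SNHG12 -0.55, SNHG7 -0.32 and SNHG15 0.22). Spike-in scaling gave another picture of this time point, with 9 of 10 hosts lower in MB468, where the median of all genes then stood at -0.42. Under this scaling 9509 of all tested genes passed there, against 2425 without it, and 2.52% of the genes called were higher. The host count is to be read against that shift of all genes. ZFAS1 became -0.38 (adjusted p = 0.00807), GAS5 -0.36 (adjusted p = 0.0113) and SNHG15 -0.24 (adjusted p = 0.0963, edgeR).

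After 12 h in Met-Hcy+, 9 of the 10 hosts were higher in MB468res-R8 and 0 were lower, against 61.7% of all tested genes (32% higher, 29.7% lower). In MB468, 3 hosts were higher, 2 were lower and 5 did not pass the threshold, against 70.6% of all genes (34.6% higher, 36% lower). The median log2 fold change of the hosts was 0.41 in MB468res-R8 and 0.07 in MB468, where the medians of all genes were 0.00 and -0.02.
SNHG1, a host whose introns carry 8 box C/D snoRNAs of the count table, had the largest change of the hosts in MB468res-R8. Its counts were 2233, 2243 and 2399 at 0 h in MB468res-R8 and 5505, 5412 and 5653 after 12 h (log2 fold change 1.27 ± 0.04, adjusted p = 7.82e-25, edgeR). In MB468 they were 2891, 3049 and 2928 at 0 h and 4698, 4642 and 4542 at 12 h (0.65 ± 0.04, adjusted p = 2e-16, edgeR). All 12 h libraries were above all 0 h libraries in both lines, and the line that started lower ended higher.
SNHG7 differed most between the lines. In MB468res-R8 it rose from 530, 511 and 514 to 1276, 1106 and 1179 (1.19 ± 0.08, adjusted p = 4.01e-16, edgeR), whereas in MB468 the counts were 721, 674 and 694 at 0 h and 712, 744 and 780 at 12 h (0.10 ± 0.08, adjusted p = 0.266).
SNHG16 showed the same kind of contrast at a higher level. In MB468res-R8 it rose to 3510, 3497 and 3238 (0.51 ± 0.05, adjusted p = 1.05e-12, edgeR), and in MB468 it was at 2852, 3030 and 2865, overlapping the 0 h libraries (adjusted p = 0.973).
SNHG15 rose in both lines, and more in MB468. It reached 2917, 2877 and 2733 in MB468 (0.88 ± 0.05, adjusted p = 3.05e-18) and 2907, 2907 and 2675 in MB468res-R8 (0.47 ± 0.05, adjusted p = 2.44e-10, edgeR). The 12 h levels of the lines overlapped (-0.01 ± 0.05, adjusted p = 0.915), with a 95% interval of the difference from -0.11 to 0.10.
ZFAS1 rose in MB468 to 6904, 7053 and 7119 (0.27 ± 0.04, adjusted p = 1.8e-08) and in MB468res-R8 to 3671, 3765 and 3799 (0.11 ± 0.04, adjusted p = 0.00837, edgeR). The difference between the lines was wider at 12 h (-0.91 ± 0.04, adjusted p = 9.56e-24) than the -0.75 of 0 h. With spike-in scaling the ZFAS1 rises became 0.06 in MB468 (adjusted p = 0.715) and 0.12 in MB468res-R8 (adjusted p = 0.482, edgeR).

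**Figure D2:**
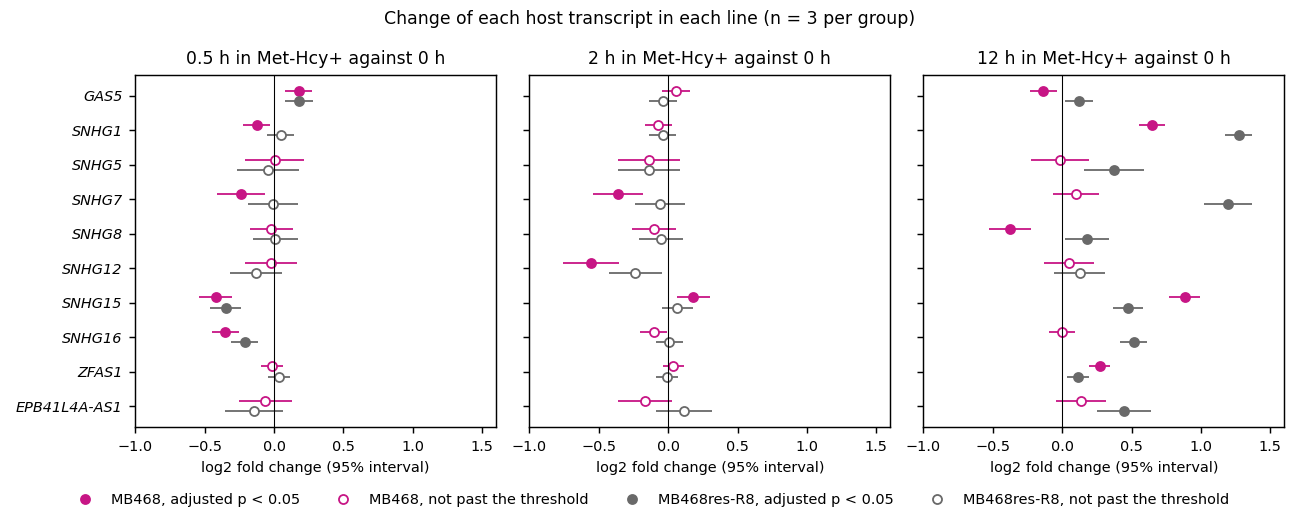
Log2 fold change against 0 h of the same line (x axis, points with 95% intervals) of the 10 host transcripts (y axis) at 0.5, 2 and 12 h in MB468 (magenta) and MB468res-R8 (gray), filled where the adjusted p is under 0.05. At 12 h SNHG1 stood at 1.27 and SNHG7 at 1.19 in MB468res-R8, against 0.65 and 0.10 in MB468.

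Smaller changes at 12 h concerned EPB41L4A-AS1, SNHG5, SNHG8 and GAS5. EPB41L4A-AS1 rose in MB468res-R8 from 323, 307 and 314 to 407, 466 and 418 (0.45 ± 0.09, adjusted p = 7.12e-05, edgeR), and in MB468 the 12 h counts of 603, 571 and 526 overlapped those of 0 h (0.13 ± 0.08, adjusted p = 0.162). SNHG5, host of SNORD50A and SNORD50B, rose in MB468res-R8 from 350, 325 and 351 to 430, 498 and 403 (0.37 ± 0.10, adjusted p = 0.00189, edgeR) and was at -0.01 ± 0.10 in MB468 (adjusted p = 0.908). SNHG8, host of SNORA24, was lower in MB468, from 714, 700 and 779 to 542, 575 and 568, with no overlap (-0.38 ± 0.07, adjusted p = 1.6e-05, edgeR). In MB468res-R8 it was at 656, 694 and 684 against 605, 586 and 606 (0.18 ± 0.07, adjusted p = 0.036), a call that was lost without any 1 of the 6 libraries compared (0.14 to 0.18, adjusted p from 0.0606 to 0.152).
GAS5 stood at 4380, 4474 and 4187 in MB468 at 12 h, overlapping its 0 h libraries (-0.14 ± 0.05, adjusted p = 0.0085, edgeR). That call was lost without MB468 0 h replicate 2 or 3, or 12 h replicate 3, with log2 fold changes of -0.10 to -0.09 and adjusted p of 0.0683 to 0.103. In MB468res-R8 GAS5 was at 3489, 3726 and 3556 (0.12 ± 0.05, adjusted p = 0.0247, edgeR), and this call was lost without MB468res-R8 0 h replicate 1 or 3, or 12 h replicate 2 or 3 (0.07 to 0.10, adjusted p from 0.0966 to 0.274), with spike-in scaling (0.13, adjusted p = 0.447) and in DESeq2's Wald test (adjusted p = 0.0516). The ZFAS1 call in MB468res-R8 was likewise lost without 0 h replicate 2 or 3, or 12 h replicate 2 or 3 (0.07 to 0.10, adjusted p from 0.0549 to 0.148). The log2 fold changes of GAS5 against 0 h thus ran from -0.14 to 0.18 over the times and lines with TMM scaling, and spike-in scaling gave -0.36 in MB468 at 2 h and 0.22 in MB468res-R8 at 0.5 h.

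The difference between the lines in the response was tested as an interaction, which uses the 0 h libraries of both lines. It passed the threshold for 0 hosts at 0.5 h, where 3.01% of all genes passed (1.48% higher, 1.53% lower), and for 0 at 2 h, where 5.09% passed (2.25% higher, 2.84% lower), with 2 and 3 hosts at an unadjusted p under 0.05 and 0 in DESeq2's Wald test at both times. At 12 h it passed for 9 hosts, 7 with the higher change in MB468res-R8 and 2 with the higher change in MB468, against 56.8% of all genes (28.7% and 28.2%). The log2 differences (MB468res-R8 minus MB468) were 1.10 ± 0.11 for SNHG7 (adjusted p = 6.16e-11), 0.63 ± 0.06 for SNHG1 (3.16e-11), 0.55 ± 0.10 for SNHG8 (1.6e-05), 0.52 ± 0.06 for SNHG16 (5.53e-09) and 0.26 ± 0.07 for GAS5 (0.000965). SNHG5 (0.38 ± 0.14, adjusted p = 0.0196) and EPB41L4A-AS1 (0.31 ± 0.13, adjusted p = 0.032, edgeR) were less certain. SNHG5 was no longer past the threshold without MB468 0 h replicate 2, MB468 12 h replicate 2 or 3, MB468res-R8 0 h replicate 1 or 2, or MB468res-R8 12 h replicate 2 (0.25 to 0.36, adjusted p from 0.0501 to 0.142). EPB41L4A-AS1 was lost without any 1 of 10 of the 12 libraries (0.21 to 0.30, adjusted p from 0.0525 to 0.175), the exceptions being replicate 1 of each line at 12 h. SNHG15 (-0.41 ± 0.07, adjusted p = 9.06e-06) and ZFAS1 (-0.15 ± 0.05, adjusted p = 0.0107, edgeR) rose more in MB468. The ZFAS1 difference turned to 0.061 (adjusted p = 0.822) with spike-in scaling, under which the median of all genes was 0.20, and that of SNHG15 became -0.19 (adjusted p = 0.423). SNHG12 did not pass (0.08 ± 0.12, adjusted p = 0.625).
At 12 h itself, 4 hosts were higher in MB468res-R8 (SNHG7, SNHG8, SNHG1 and SNHG16) and 3 were lower (ZFAS1, EPB41L4A-AS1 and GAS5), where 73.1% of all genes passed (35.6% higher, 37.5% lower). SNHG7 had the largest positive difference at that time, 0.67 ± 0.08 (adjusted p = 2.67e-10, edgeR). With spike-in scaling SNHG1 (0.17, adjusted p = 0.246), SNHG8 (0.19, adjusted p = 0.234) and SNHG16 (0.14, adjusted p = 0.348) no longer passed at 12 h.
In a comparison of 12 h with 2 h added after the data were seen, all 10 hosts were higher at 12 h in MB468res-R8, from 0.12 for ZFAS1 to 1.31 for SNHG1 (62.9% of all genes passed, 32.5% higher and 30.3% lower). In MB468, 7 were higher and 2 lower, GAS5 (-0.19) and SNHG8 (-0.27), against 69.9% of all genes (33.7% higher, 36.1% lower).

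Over the 24 libraries, which share lines and times and are no independent replicates, log2 CPM of SNHG1 correlated with that of SNHG7 (Pearson's r = 0.912), SNHG16 (0.828), SNHG5 (0.672) and SNHG15 (0.638). GAS5 correlated with ZFAS1 (0.849) and EPB41L4A-AS1 (0.733), had an r of 0.122 with SNHG1 and was negatively correlated with SNHG15 (-0.539). The genes most like GAS5 among 11855 non-member genes were NARS, the cytosolic asparaginyl-tRNA synthetase (r = 0.967), TBC1D4 (0.967), ATG2B (0.963), RHOBTB3 (0.960) and LRRC75A-AS1, another snoRNA host (0.959). Those most like the mean of the 10 hosts were PNP, purine nucleoside phosphorylase (0.963), NAT10, an RNA acetyltransferase (0.947), ARMC6 (0.941), DENR, a factor of ribosome recycling and reinitiation (0.941), and NCBP2, a subunit of the nuclear cap-binding complex (0.939).

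Several hosts have a gene on the other strand within 1000 bases or overlapping them. The library kit does not keep strand and the strand setting of the counting was not given in the sources used here, so reads from overlapping parts cannot be assigned. SLC3A2, the heavy chain shared by several amino acid transporters, starts 224 bases from SNHG1. It rose in MB468 at 12 h from 11871 ± 418 to 23665 ± 516 (SD, n = 3), a log2 fold change of 0.996 ± 0.04, and fell by 0.49 in MB468res-R8 from 10707 ± 563 to 7631 ± 244. The difference between the lines was -1.48 ± 0.06 for SLC3A2 (adjusted p = 3.06e-22) and 0.63 for SNHG1 (edgeR). ZNFX1, 121 bases from ZFAS1, fell in MB468 at 12 h (-0.55 ± 0.05, adjusted p = 1.69e-12, edgeR) while ZFAS1 rose by 0.27. EPB41L4A, which overlaps EPB41L4A-AS1, fell in MB468res-R8 at 12 h (-0.68 ± 0.08, adjusted p = 2.07e-09, edgeR) while EPB41L4A-AS1 rose by 0.45. PRSS12, 215 bases from SNHG8, fell in both lines (-1.03 in MB468 and -0.82 in MB468res-R8). ST6GALNAC2, 29 bases from SNHG16, fell in MB468 at 12 h (-1.73 ± 0.19, adjusted p = 2.51e-10) and was at -0.33 in MB468res-R8 (adjusted p = 0.0554, edgeR). Its difference between the lines was 1.40 ± 0.25 (adjusted p = 6.01e-06, edgeR), in the same direction as that of SNHG16. TRNAU1AP, which overlaps SNHG12, rose by 0.44 in MB468 (adjusted p = 1.16e-06, edgeR), and ZBTB37 and GAS5-AS1, which overlap GAS5, did not pass the threshold at 12 h in either line. SNHG7 is overlapped by DIPK1B, on the other strand, and by LOC124900276, whose strand was not determined. Neither symbol was in the count table, so their reads could not be compared.

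The count table also lists the snoRNA genes inside the introns of these hosts, and of 35 taken 25 had enough reads to test. Poly(A) selection and RNA clean-up do not retain mature snoRNAs well, and reads there can also come from unspliced or intron-retaining host RNA, so these counts do not measure the snoRNAs themselves and the sources cannot be told apart. In MB468, 5 of the 25 were lower at 0.5 h, 11 at 2 h and 16 at 12 h, with none higher, where 17.8%, 7.95% and 36% of all genes were lower. The 5 at 0.5 h are 20% of the 25, near the 17.8% of all genes. The median log2 fold changes were -0.601, -0.995 and -0.981. In MB468res-R8, 1 was higher and 3 lower (12%) at 0.5 h, where 17.4% of all genes were higher and 16.2% lower. None passed at 2 h (2 at an unadjusted p under 0.05, 0 in DESeq2's Wald test), where 4.34% of all genes passed. At 12 h 9 were higher and none lower (median 0.54). The 9 are 36% of the 25, near the 32% of all genes that were higher in that comparison.
Of 66 other tested snoRNA genes in the table, 30 were lower in MB468 at 12 h (median -0.74), and 7 were higher and 2 lower in MB468res-R8 (median 0.20). The interaction at 12 h passed for 21 of the 25 genes inside the hosts (84%), all with the higher change in MB468res-R8, against 28.7% of all genes. It passed for 19 of the 66 others, all in the same direction. The 19 are 28.8% of the 66, near the 28.7% of all genes.
SNORD80, in an intron of GAS5, had 92.3 to 100 normalized reads in MB468 at 0 h and 44.8 to 51.3 at 12 h (-1.04 ± 0.18, adjusted p = 3.12e-06, edgeR). In MB468res-R8 it went from 64.8 to 81.1 at 0 h to between 92.8 and 103 at 12 h (0.44 ± 0.18, adjusted p = 0.0323, edgeR). SNORA61, in SNHG12, fell in MB468 by 0.98 (69.6 to 82.1 reads at 0 h, 28.9 to 46.6 at 12 h) and rose in MB468res-R8 by 0.52. SNORD31, in SNHG1, went from 35.2 to 39.3 reads at 0 h to 3.77 to 13.6 at 2 h in MB468 (-2.11 ± 0.36, adjusted p = 1.85e-05, edgeR) while SNHG1 itself stood at -0.07 (adjusted p = 0.356), and SNORD31 was at -2.47 ± 0.41 without MB468 2 h replicate 2 (adjusted p = 2.25e-05, edgeR).
Single libraries mattered for these counts. At 0.5 h the 5 calls in MB468 became 3 without 0.5 h replicate 1, and the 4 in MB468res-R8 became 1 without its 0.5 h replicate 1. The count in MB468 at 2 h was 12 without replicate 2, the library with many reads on RNAs without a poly(A) tail, and 7 without replicate 1. The 9 calls in MB468res-R8 at 12 h became 4 without 0 h replicate 1 or without 0 h replicate 2, and 5 without 12 h replicate 3. At 0 h, 7 of the 25 (28%) were lower in MB468res-R8 than in MB468, near the 28.3% of all genes, and this count fell to 0 without MB468res-R8 0 h replicate 1, to 2 without MB468 0 h replicate 2, to 3 without MB468 0 h replicate 1 and to 4 without MB468res-R8 0 h replicate 2.

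**Figure D3:**
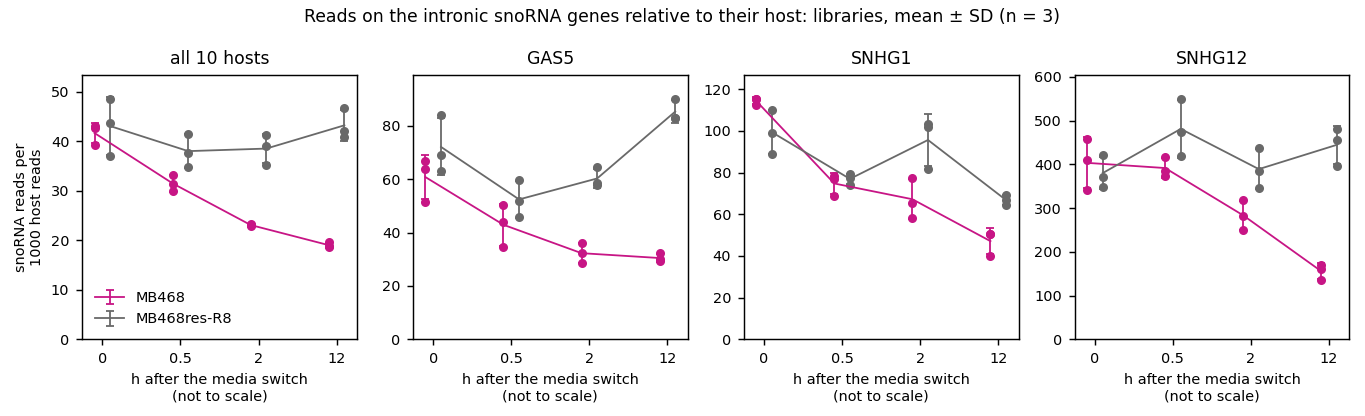
Reads on the intronic snoRNA genes per 1000 reads on the host (y axis, from 0) by hours in Met-Hcy+ (x axis, not to scale) for all 10 hosts together and for GAS5, SNHG1 and SNHG12, where points are libraries and lines are means ± SD (n = 3). For all 10 hosts the MB468 mean fell from 41.7 at 0 h to 19.0 at 12 h, while MB468res-R8 was at 43.1 and 43.2.

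Reads on the snoRNA genes were also related to reads on the spliced hosts of the same library. Summed over the 10 hosts, MB468 had 42.6, 43.1 and 39.2 snoRNA reads per 1000 host reads at 0 h, 31.3, 33.2 and 30.0 at 0.5 h, 22.8, 23.1 and 23.4 at 2 h and 18.7, 18.8 and 19.6 at 12 h. Without MB468 2 h replicate 2 the 2 h mean was 23.1. Each later group lay below all 0 h libraries, and the 12 h mean was 0.457 times the 0 h mean (two-sided exact permutation p = 0.1, the smallest that 3 against 3 libraries allow). MB468res-R8 had 37.0, 43.6 and 48.6 at 0 h, 41.6, 37.6 and 34.9 at 0.5 h, 41.2, 35.3 and 39.1 at 2 h and 40.8, 42.0 and 46.8 at 12 h, and all these groups overlapped. At 12 h the ratio was 2.27 times higher in MB468res-R8 than in MB468, with no overlap (exact permutation p = 0.1), and at 0 h the lines overlapped (1.03 times). Within hosts, the ratio in MB468 at 12 h was 0.501 times that of 0 h for GAS5, 0.412 times for SNHG1 and 0.386 times for SNHG12, each without overlap between groups (exact permutation p = 0.1 each). GAS5 had 66.8, 63.9 and 51.6 snoRNA reads per 1000 host reads at 0 h and 30.0, 29.2 and 32.2 at 12 h in MB468. In MB468res-R8 it had 63.1, 69.1 and 83.9 at 0 h and 82.7, 82.9 and 90.1 at 12 h, which overlapped. For 2 hosts the early values moved in both lines. At 0.5 h the GAS5 ratio was 0.706 times that of 0 h in MB468 and 0.727 times in MB468res-R8, and the SNHG1 ratio 0.654 and 0.775 times, each without overlap (exact permutation p = 0.1 each). The ratios of SNHG5 (0.591 and 0.598 times), SNHG12 (0.971 and 1.27 times) and SNHG15 (0.730 and 1.05 times) overlapped 0 h in both lines. So did the MB468res-R8 ratio over all 10 hosts (0.883 times). SNHG1 was different from GAS5 in MB468res-R8, where its ratio at 12 h (66.8 ± 2.57) lay below that of 0 h (99.3 ± 10.7) as the host rose.

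Other snoRNA hosts and the pathways that act on host transcripts were described by counts, with no test of a list. The counts at 12 h are to be read against all tested genes, of which 34.6% were higher and 36% lower in MB468, and 32% and 29.7% in MB468res-R8. Of 14 other noncoding hosts, 5 were higher and 6 lower in MB468 at 12 h, and 4 were higher and 1 lower in MB468res-R8 (medians -0.05 and 0.03). SNHG17 rose in both lines (0.83 ± 0.05 in MB468, 0.45 ± 0.06 in MB468res-R8). SNHG11 rose in MB468, from 147 ± 3.34 to 373 ± 13.9 normalized reads (1.34 ± 0.12), and was at 0.07 ± 0.15 in MB468res-R8 (adjusted p = 0.709), and SNHG4 fell in MB468 by 1.13 and rose in MB468res-R8 by 0.43.
Protein-coding hosts of the translation machinery (ribosomal proteins and translation factors) went the other way in the 2 lines, with 0 higher and 27 lower of 29 in MB468 at 12 h (median -0.48) and 21 higher and 0 lower in MB468res-R8 (median 0.17). RPL5, host of box C/D snoRNA genes, fell in MB468 from 12887 ± 147 to 5814 ± 93.2 (-1.15 ± 0.04) and rose in MB468res-R8 from 10841 ± 337 to 13440 ± 444 (0.31 ± 0.04). RPL4 followed it with -0.91 ± 0.03 and 0.22 ± 0.03. All 29 passed the interaction with the higher change in MB468res-R8, whereas 28.7% of all genes did.
The other protein-coding hosts rose in MB468res-R8 at 12 h in 7 of 7 cases. In MB468, 4 rose and 1 fell. NCL, the nucleolar protein nucleolin, rose in both lines (0.41 ± 0.04 in MB468, 0.86 ± 0.04 in MB468res-R8), and HSPA8, a constitutive chaperone, fell in MB468 by 1.19 and rose in MB468res-R8 by 0.61.
Of 16 core and assembly proteins of snoRNPs, the complexes that hold snoRNAs, 8 were higher and 3 lower in MB468 at 12 h and 15 higher and 1 lower in MB468res-R8. FBL (fibrillarin), the methyltransferase of the box C/D particle, fell in MB468 (-0.15 ± 0.04) and rose in MB468res-R8 (0.47 ± 0.04), and NOP58, its core partner, did the same (-0.37 ± 0.05 and 0.40 ± 0.05).

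The NMD pathway was described by its factors and by mRNAs known to be degraded by it. Of 21 NMD factors, 11 were higher and 6 lower in MB468 at 12 h (median 0.18), and 16 higher and 2 lower in MB468res-R8 (median 0.36). DHX34, a helicase of the pathway, rose in MB468 from 1137 ± 30.3 to 3082 ± 14.7 (1.44 ± 0.05) and by 0.57 in MB468res-R8. UPF2, a core factor, rose by 0.77 in MB468 and 0.60 in MB468res-R8. SMG9, a regulator of the SMG1 kinase, fell by 1.09 in MB468 and by 0.12 in MB468res-R8.
Of 13 mRNAs known as NMD substrates, 7 were higher and 0 lower in MB468 at 2 h, where 8.5% of all genes were higher and 7.95% lower. Without MB468 2 h replicate 2, 7 were higher and 1 lower. At 12 h in MB468 9 were higher and 2 lower (median 0.29). In MB468res-R8 at 12 h 4 were higher and 6 lower (median -0.21). GADD45B, a stress-induced gene, rose in MB468 to 6551 to 6969 normalized reads at 12 h, from 1675 to 1940 at 0 h (1.94 ± 0.05), and fell in MB468res-R8 (-1.26 ± 0.06). DDIT3, the transcription factor CHOP of the integrated stress response, rose in MB468 by 2.37 ± 0.12 and was at 0.25 ± 0.13 in MB468res-R8 (adjusted p = 0.0953). Several of these mRNAs are also direct targets of that stress response, so their level is not a measure of NMD alone.
Of 19 genes of translation and mTOR control, 11 were higher and 5 lower in MB468 at 12 h. In MB468res-R8 7 were higher and 7 lower, near the shares of all genes in that line. The list mixes brakes with MTOR, RPTOR and RPS6KB1, which promote translation, and PPP1R15A, so its counts are no measure of restraint. SESN2, a sestrin that holds back mTORC1, rose in MB468 from 191 ± 15.4 to 1555 ± 77.9 (3.03 ± 0.09) and was at -0.15 ± 0.09 in MB468res-R8 (adjusted p = 0.167). PPP1R15A, the phosphatase subunit GADD34 that reverses eIF2α phosphorylation, rose in MB468 (1.88 ± 0.05) and fell in MB468res-R8 (-0.59 ± 0.06). The genes named in these lists without a p passed the threshold in the direction given (adjusted p under 0.05, edgeR).

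**Figure D4:**
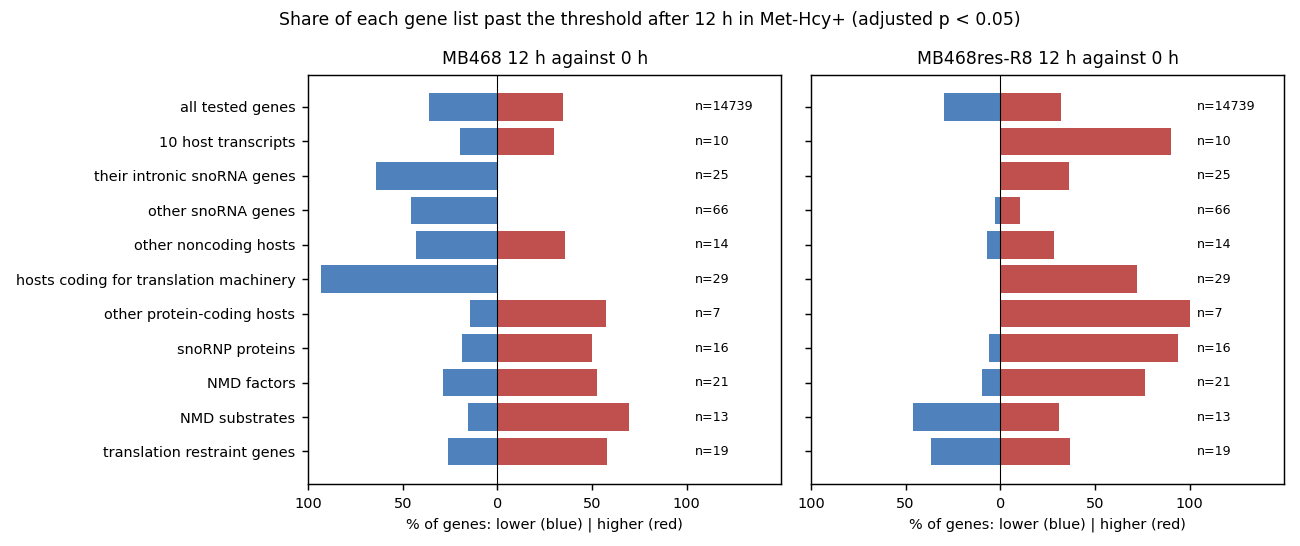
Percent of each gene list past the threshold at 12 h against 0 h, higher to the right in red and lower to the left in blue (x axis), for all tested genes, the 10 hosts, their intronic snoRNA genes and 8 further lists (y axis, n = genes tested), in MB468 (left) and MB468res-R8 (right). Hosts coding for the translation machinery were lower in 27 of 29 cases in MB468 and higher in 21 of 29 in MB468res-R8. The list labelled translation restraint genes also holds MTOR, RPTOR and RPS6KB1, which promote translation, and PPP1R15A.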

How the data were processed

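Per the labels, the authors aligned single-end reads of 100 bases from poly(A)-selected TruSeq v2 libraries with ERCC spike-ins to GRCh38 with HISAT2 2.1.0 and made the deposited raw counts per gene with featureCounts (Subread 1.5.3), and the strand setting and annotation were not given in the sources used here. Their normalized table and their table of fold changes and p-values were not used.

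The 92 spike-ins and 4 repeated symbols were left out. Entries that passed edgeR's filterByExpr (minimum count 10, minimum total 15; 14739 entries) were scaled by TMM and tested with edgeR 4.0.16 (R 4.3.3, limma 3.58.1) by the quasi-likelihood test on 8 group means over 24 libraries, with Benjamini-Hochberg adjustment over all entries and a threshold of 0.05. Normalized counts are scaled to 22763665 reads. Intervals are 95%. The scripts were tested on simulated data. DESeq2 1.42.0 was an alternative. Start sites came from GENCODE 44 and neighbouring genes from RefSeq GRCh38.p14. Genes named beside the hosts were, in each list, up to 4 ranked by p in the 12 h comparison of MB468 and up to 2 in the interaction at 12 h, plus the 5 most alike GAS5 or the host mean, and neighbours within 1000 bases. Hosts, lists and rules were chosen with earlier results of these data known. The correlations of the deviations of same-numbered libraries ran from -0.501 to 0.466. Their mean was 0.277 in MB468res-R8 at 2 h against 0 h (-0.138 for different numbers), and from -0.145 to 0.0759 in the other comparisons. The numbers were therefore not used as pairs in the main fit, and a replicate block was an alternative.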

Additional observations from a re-analysis of the deposited data

Results flagged for a closer look

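Differences between the lines in the 12 h response passed edgeR's interaction test for 9 hosts, against 56.8% of all tested genes. The log2 values (MB468res-R8 minus MB468) were 1.10 for SNHG7, 0.63 for SNHG1, 0.55 for SNHG8, 0.52 for SNHG16 and 0.38 for SNHG5. They were 0.31 for EPB41L4A-AS1, 0.26 for GAS5, -0.41 for SNHG15 and -0.15 for ZFAS1. The SNHG5 and EPB41L4A-AS1 calls were lost in several fits that left out 1 library. The SNHG15 and ZFAS1 calls were lost with spike-in scaling. The interaction also passed for 21 of 25 tested snoRNA genes in the introns of the hosts, all with the higher change in MB468res-R8. Of all genes, 28.7% passed in that direction.

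The same test passed for named genes of the other lists. Among snoRNA hosts the values were 1.55 for SNHG4, 0.64 for SNHG6, 1.46 for RPL5, 1.13 for RPL4, 1.80 for HSPA8 and 0.58 for DKC1. Among snoRNP proteins they were 0.63 for FBL and 0.76 for NOP58, and among NMD factors 0.98 for SMG9 and 0.70 for RBM8A. Among NMD substrates and genes of translation and mTOR control they were -3.20 for GADD45B, -1.26 for UPP1, -2.47 for PPP1R15A and -3.18 for SESN2. No test for an outlying library within a group was run, since each group has 3.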

How the results depend on the processing

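Of 110 host values (10 hosts in 11 comparisons), all kept their call and direction with a replicate block, with a spike-in factor as covariate and when only the compared groups were fitted. With the block 9 hosts passed in MB468res-R8 at 12 h and 5 in MB468, as without it. Calls of other genes did shift slightly: with the block, the share of called genes that were higher went from 44.3% to 43.4% in the 2 h interaction. In MB468res-R8 at 2 h it went from 56.8% to 57.3%. A call was lost for 1 value with DESeq2 size factors, 2 with DESeq2's Wald test, 1 with no filter and 4 with at least 10 counts in every library.

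Scaling to spike-in totals changed most: 13 values lost and 8 gained a call and 5 turned direction (MB468: GAS5 -0.025 at 0.5 h and -0.36, SNHG15 -0.24 and ZFAS1 -0.38 at 2 h; interaction at 12 h: ZFAS1 0.061). It also turned HSPA9 (-0.034) and DKC1 (-0.055) in MB468 at 12 h and the UPF2 interaction (0.047). The median of all genes then stood at -0.31 at 0 h, -0.20, -0.42 and -0.23 in MB468 at 0.5, 2 and 12 h, 0.20 in the 12 h interaction and -0.11 between lines at 12 h. Hosts past the threshold became 3 at 0.5 h and 9 at 2 h in MB468, and 0 in MB468res-R8 at 0.5 h. At 12 h they became 6 higher and 0 lower in MB468res-R8 (from 9 and 0). In MB468 at 12 h they became 2 higher and 2 lower (from 3 and 2). They became 3 in the 2 h interaction and 4 between lines at 12 h. All genes past the threshold then numbered 3287, 9509 and 8459 in MB468 at 0.5, 2 and 12 h (5021, 2425 and 10402 with TMM). In MB468res-R8 they numbered 2022 and 5884 at 0.5 and 12 h (4960 and 9089 with TMM). In the 2 h interaction 931 genes passed (750 with TMM), and between lines at 12 h 8646 (10768 with TMM). The share of called genes that were higher moved from 47.2% to 15% at 0 h, from 47.7%, 51.7% and 49.0% to 14.0%, 2.52% and 30.0% in MB468 at 0.5, 2 and 12 h, and from 49.2%, 44.3% and 50.4% to 79.2%, 93.0% and 69.9% in the interactions. At an adjusted p under 0.01, 3 hosts passed in MB468 at 0.5 h.

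Leaving out 1 library gave 3 to 5 hosts in MB468 at 0.5 h, 0 to 1 in the 2 h interaction (SNHG7, without MB468 2 h replicate 3), 6 to 8 in MB468res-R8 at 12 h and 7 to 9 in the 12 h interaction. SNHG5 passed in MB468 at 2 h (-0.36, adjusted p = 0.014) without 2 h replicate 3. The causes were not tested.

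Called snoRNA genes inside the hosts, a count added after the data were seen, ranged over settings from 3 to 21 in MB468 at 2 h, 6 to 20 in MB468 and 4 to 9 in MB468res-R8 at 12 h, and 6 to 22 in the 12 h interaction, the lowest with at least 10 counts in every library, which tests fewer of these genes. Their low counts limit single snoRNA genes.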
